A study of Mus musculus with 6 samples.

Results

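The genes described here make, load and sense GABA, the main inhibitory transmitter of the brain and the transmitter that Purkinje cells themselves release. They were chosen by name, and all 7 were found among the 23420 rows of the deposited count table and among the 16067 genes tested: Gad1, Gad2, Slc32a1, Gabrb2, Gphn, Gabbr1 and Gabbr2. The RNA came from a BacTRAP pull-down, in which ribosomes carrying a tag are captured from whole tissue together with the messages they are translating. The tag is expressed from Pcp2, a gene active in cerebellar Purkinje cells. Every library came from 1 cerebellum of a 4-week-old C57BL/6 mouse, with 3 animals per genotype. Control mice were Pcp2-BacTrap with Rbm17 f/+, that is 1 floxed and 1 wild-type allele of the splicing factor gene Rbm17, and no Cre is named in their genotype. The conditional knockout (cKO) mice were Pcp2-BacTRAP, Pcp2-Cre and Rbm17 f/-, with 1 floxed and 1 null allele. The Cre transgene and the null allele were therefore present in cKO only, and cells of the cKO animals without Cre also carried the null allele. The tag and Cre were both driven by Pcp2, whose own level in the pull-down was 1098, 1044 and 1013 CPM in control 1 to 3 and 317, 421 and 459 CPM in cKO 1 to 3. CPM are read counts divided by the library's total, which was scaled by the TMM method, and expressed on one common scale. The series title names cryptic splicing after loss of RBM17, so the comparison asks which GABA genes differed in level and which of their splice junctions differed in use.

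GABA is made from glutamate by 2 glutamate decarboxylases, GAD67 from Gad1 and GAD65 from Gad2, and is packed into synaptic vesicles by the transporter VGAT from Slc32a1. It acts on GABA-A receptors, pentameric chloride channels to which Gabrb2 contributes a beta subunit and which the scaffold gephyrin from Gphn helps to hold at inhibitory synapses. It also acts on GABA-B receptors, which couple to G proteins and work only as a pair of GABBR1, which binds GABA, and GABBR2, which engages the G protein. Purkinje cells are the output neurons of the cerebellar cortex, so they use the first set of genes at their terminals in the deep nuclei and the receptor genes on their own dendrites and cell bodies.

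The targeted gene Rbm17 stood at 41.2, 42.5 and 41.3 CPM in the control libraries and at 25.8, 25.6 and 26.3 CPM in the cKO libraries, with no overlap. Libraries held from 140110897 to 160571518 gene counts and from 73457422 to 83976095 reads across splice junctions. Markers of Purkinje cells summed to 31554 to 41979 CPM in control and 18780 to 21931 CPM in cKO, and 9 of 13 fell, with a median log2 difference of -0.61. Markers of GABA interneurons, which also make GABA, summed to 373.9 to 462.9 CPM in control and 346.3 to 456.1 CPM in cKO. None of those 13 passed edgeR's quasi-likelihood test, 1 had an unadjusted p under 0.05, and DESeq2 called 0. Granule cell markers, which include the GABA-A subunit gene Gabra6, summed to 3709 to 5341 CPM in control and 3135 to 5320 CPM in cKO, and were lowest in replicate 1 of each genotype. Of 10 granule cell markers, 0 passed the edgeR test, 1 had an unadjusted p under 0.05 and DESeq2 called 1. Astrocyte and Bergmann glia markers summed to 1400 to 1700 CPM in control and 1041 to 1350 CPM in cKO, with 1 of 10 risen and 2 fallen. Microglia markers summed to 56.1 to 82.1 CPM in control and 107.3 to 177.3 CPM in cKO, and 7 of 12 rose. Oligodendrocyte markers summed to 2853 to 4269 CPM in control and 2232 to 3308 CPM in cKO, with 1 of 8 fallen. For comparison, the edgeR test called 3.85% of all genes tested lower and 4.03% higher in cKO. No marker of any of the 6 lists was at 0 in all libraries.

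**Figure D1:**
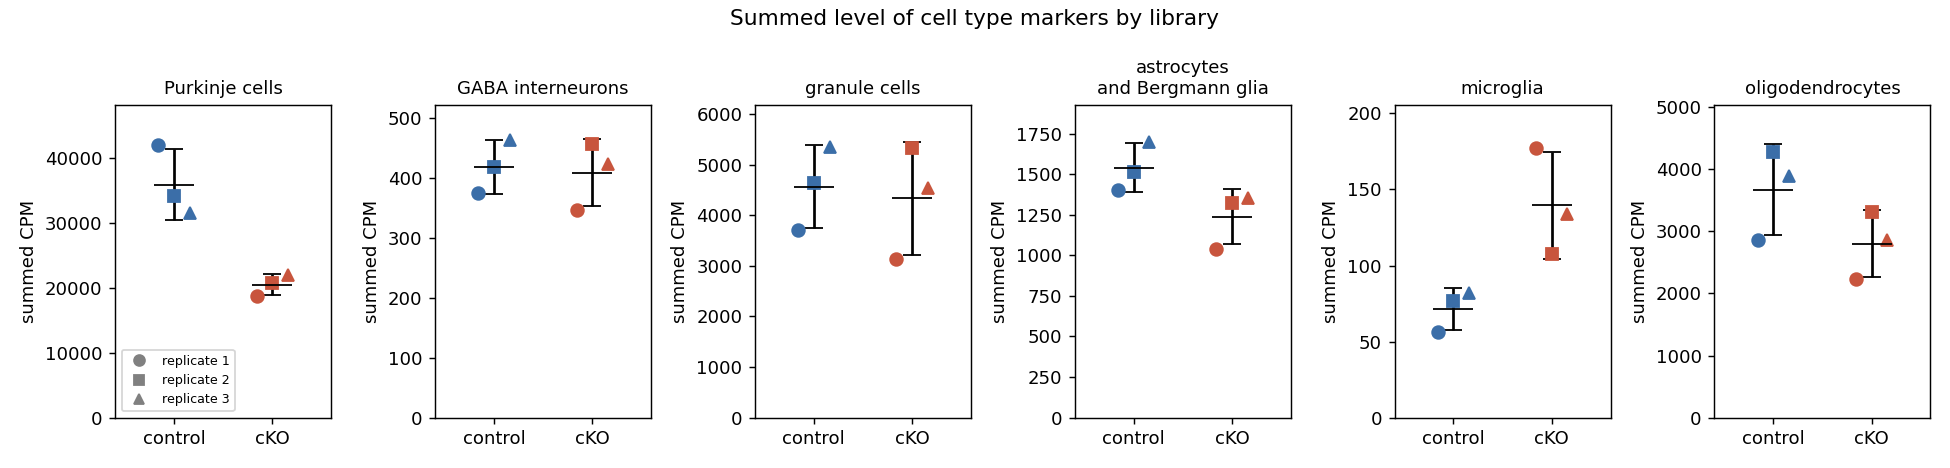
Summed level of each marker list (y axis, CPM) in the control and cKO libraries, with symbols for the 3 replicates and bars for mean ± SD (n = 3). Purkinje markers lay between 31554 and 41979 CPM in control and between 18780 and 21931 CPM in cKO, and microglia markers between 56.1 and 82.1 CPM and between 107.3 and 177.3 CPM.

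Of the 7 GABA genes, 3 fell and 0 rose at an adjusted p under 0.05 by edgeR's quasi-likelihood test. Among all genes tested, 3.85% fell and 4.03% rose, or 7.87% in either direction. DESeq2 called 4 of the 7 lower, Gabrb2 besides these 3, where it called 6.36% of its genes lower. The 3 that edgeR called were Gabbr2, Gabbr1 and Slc32a1, and their mean levels in cKO were 59.1%, 67.2% and 72.1% of control. The decarboxylase genes Gad1 and Gad2, the channel subunit gene Gabrb2 and the scaffold gene Gphn did not pass. All 7 log2 differences lay below 0, as did 7898 of the 16067 over all genes tested. The median of the 7 was -0.25, against a median of 0.01 over all genes tested. In 5 of the 7 genes every cKO library lay below every control library, as in 13.4% of all genes tested (28.4% separated in either direction). Because the RNA is from bulk pull-downs, fewer tagged Purkinje cells and less of a message per cell cannot be told apart. The Purkinje markers, with their median log2 difference of -0.61, moved with Gabbr1, Gabbr2 and Slc32a1, and microglia markers moved the opposite way. Their part in these results was not tested.

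**Figure D2:**
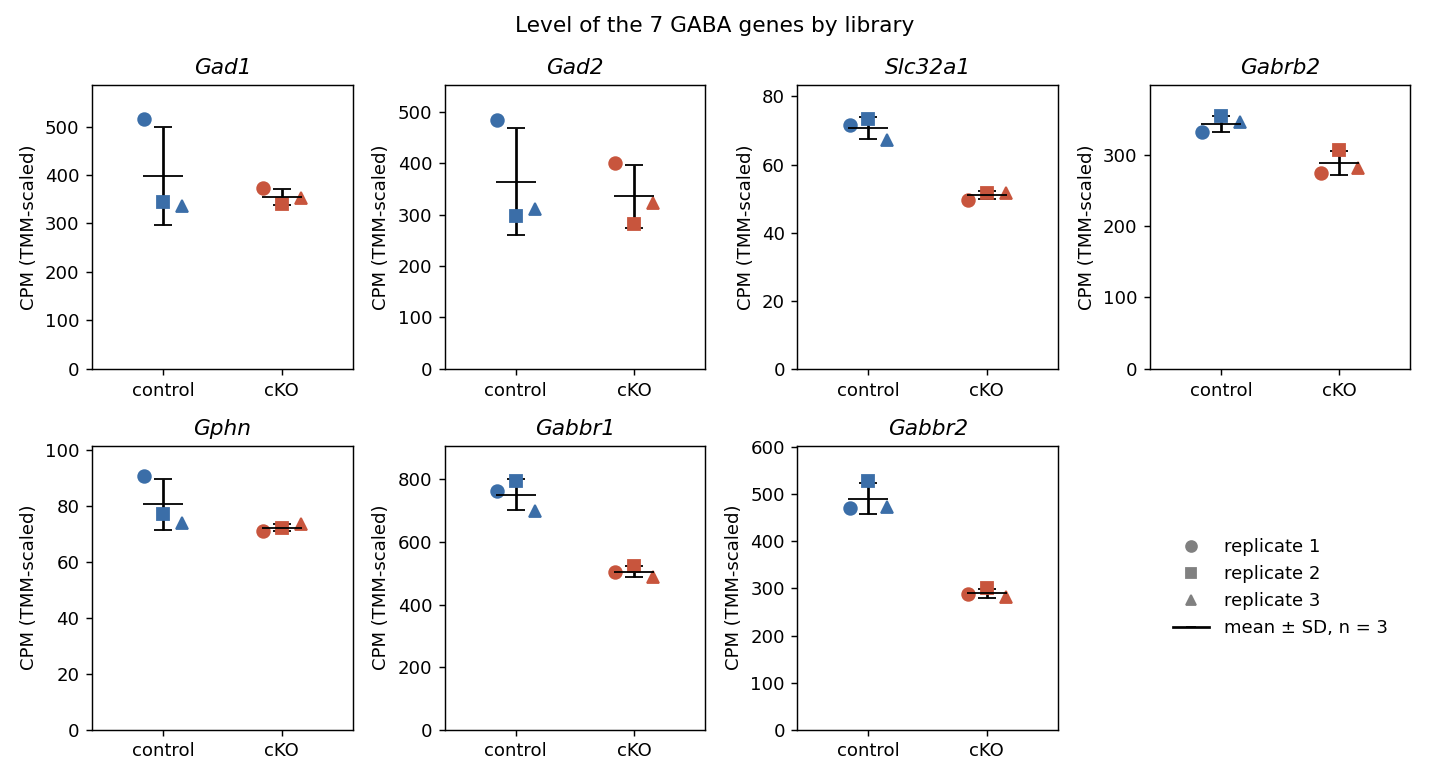
Level of each of the 7 GABA genes (y axis, TMM-scaled CPM, starting at 0) in control and cKO, with symbols for the 3 replicates and bars for mean ± SD (n = 3). Gabbr1, Gabbr2 and Slc32a1 were lower in all 3 cKO libraries, while Gad1 and Gad2 overlapped between the groups and were highest in control 1.

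The splice joins on which the junction results turn are shown here, since they show which exons were brought together. In mm10, Gabbr1 lies on the plus strand of chromosome 17 from 37045966 to 37075067, and Gabrb2 on the plus strand of chromosome 11 from 42419757 to 42629028. Exons are numbered 5′ to 3′ in the first-numbered GENCODE transcript of each gene, which need not hold every annotated exon. Each line gives the last 30 bases of the upstream exon in lower case and the 30 bases that begin the downstream exon in capitals, all from the plus strand. For Gabbr1, exon 6 ends at chr17:37051130-37051159, exon 7 begins at chr17:37054131-37054160, exon 11 ends at chr17:37056950-37056979 and exon 12 begins at chr17:37062534-37062563. The exon 6 to 7 and exon 11 to 12 joins are annotated, and the exon 6 to 12 join is not.
Gabbr1 exon 6 to 7: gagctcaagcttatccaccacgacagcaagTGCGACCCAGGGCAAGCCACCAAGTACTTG
Gabbr1 exon 11 to 12: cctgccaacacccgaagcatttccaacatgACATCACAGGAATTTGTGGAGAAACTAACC
Gabbr1 exon 6 to 12: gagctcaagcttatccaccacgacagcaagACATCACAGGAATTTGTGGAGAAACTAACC

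For Gabrb2, exon 2 ends at chr11:42421397-42421426, exon 3 at chr11:42421614-42421643 and exon 4 at chr11:42422619-42422648, and exon 5 begins at chr11:42487196-42487225. The exon 4 to 5 join is the annotated one, and those from exon 2 and exon 3 to exon 5 are not.
Gabrb2 exon 4 to 5: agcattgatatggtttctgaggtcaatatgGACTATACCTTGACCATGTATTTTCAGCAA
Gabrb2 exon 2 to 5: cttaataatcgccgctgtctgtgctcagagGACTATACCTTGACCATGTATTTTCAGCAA
Gabrb2 exon 3 to 5: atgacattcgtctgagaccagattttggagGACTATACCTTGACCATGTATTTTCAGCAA

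Gad1 lies on the plus strand of chromosome 2 from 70553072 to 70602014 and encodes the decarboxylase that supplies most of the GABA in a neuron. Its level was 515.1, 344.4 and 336.5 CPM in control 1 to 3 and 372.7, 340.2 and 353.0 CPM in cKO 1 to 3. Control 1 was the highest library, the other five lay close together, and the groups overlapped. The mean was 398.7 ± 101 CPM in control and 355.3 ± 16 CPM in cKO (SD, n = 3), a log2 difference of -0.17 ± 0.15 (SE) that did not pass edgeR's test (adjusted p 0.59). Without control 1 the log2 difference of Gad1 was 0.059. A gene annotated as antisense to Gad1, Gad1os, overlaps it, and without a stated strand setting for the counting the reads of this pair cannot be told apart.

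Gad2 lies on the plus strand of chromosome 2 from 22622205 to 22693874 and encodes the decarboxylase found mainly at nerve terminals. The 3 control libraries held 484.2, 297.1 and 310.7 CPM and the 3 cKO libraries 401.2, 281.9 and 323.2 CPM. Replicate 1 was the highest library in each genotype, and the groups overlapped. The mean was 364.0 ± 104 CPM in control and 335.5 ± 61 CPM in cKO (SD, n = 3), with a log2 difference of -0.12 ± 0.19 (SE; edgeR adjusted p 0.78). Without control 1 it was 0.14. Per kilobase of annotated exon, Gad2 stood at 1.222, 1.121 and 1.200 times the level of Gad1 in the control libraries and at 1.400, 1.077 and 1.190 times in the cKO libraries. That length counts every annotated exon, used or not, and was 7.639 kilobases for Gad1 and 5.876 for Gad2. In CPM the mean of Gad1 was the higher in both groups (398.7 and 355.3), so which message was more abundant is not settled here. The per-kilobase ratios overlapped between the groups, with an exact two-sided permutation p of 0.90, and with 3 against 3 libraries such a test cannot go below 0.10.

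Slc32a1 lies on the plus strand of chromosome 2 from 158610767 to 158615748, has 2 exons, and encodes the vesicular transporter of GABA. Control libraries held 71.6, 73.3 and 67.3 CPM and cKO libraries 49.7, 51.7 and 51.7 CPM. The highest cKO library lay well below the lowest control library. Slc32a1 thus fell, with a control mean of 70.7 ± 3.1 CPM against 51.0 ± 1.2 CPM (SD, n = 3) and a log2 difference of -0.47 ± 0.09 (SE; edgeR adjusted p 0.0090). This call was lost without control 2 (adjusted p 0.054) and without cKO 3 (adjusted p 0.053), with log2 differences of -0.46 and -0.48. Relative to Gad1 per kilobase, Slc32a1 stood at 0.380, 0.581 and 0.546 in control and at 0.364, 0.415 and 0.400 in cKO. Those ratios overlapped, with control 1, the library highest in Gad1, nearest to cKO (exact two-sided permutation p 0.30, 0.45 after adjustment over 3 ratios). A gene annotated as antisense to Slc32a1, Gm14205, overlaps it, and their reads cannot be told apart here.

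Among the 15 genes of GABA synthesis, transport, breakdown and chloride balance that were tested, Slc32a1 was the 1 gene that fell, and 0 rose (3.85% and 4.03% over all genes tested). Their median log2 difference was -0.15, and 14 of 15 lay below 0, as did 7898 of the 16067 genes tested. The edgeR test gave 3 genes an unadjusted p under 0.05, all lower in cKO, and DESeq2 called 3 of them lower. Among those that DESeq2 called was the glial GABA transporter gene Slc6a11, named after its values were seen (log2 difference -0.52 by DESeq2, adjusted p 0.0085). Slc6a11 is also among the astrocyte and Bergmann glia markers. Its 3 control libraries held 24.32, 32.52 and 36.27 CPM and its 3 cKO libraries 22.68, 21.43 and 21.03 CPM.

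Gabrb2 encodes the beta 2 subunit of GABA-A receptors, which takes part in the most common subunit combination of the brain. It was measured at 331.1, 353.6 and 345.3 CPM in control 1 to 3 and at 274.9, 306.5 and 281.9 CPM in cKO 1 to 3. All 3 cKO libraries were below the lowest control library. The mean was 343.3 ± 11 CPM in control and 287.8 ± 17 CPM in cKO (SD, n = 3), with a log2 difference of -0.25 ± 0.08 (SE). It did not pass edgeR's test (adjusted p 0.10), while DESeq2 gave an adjusted p of 0.034.

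None of the 17 GABA-A subunit genes tested passed edgeR's test in either direction, and their median log2 difference was -0.16. At an unadjusted p under 0.05, 2 were higher and 2 lower in cKO, and DESeq2 called 1 of each, Gabra4 and Gabrb2. Gabra6, a subunit gene of granule cells with one of the highest levels of the list, stood at 327.8, 410.8 and 431.0 CPM in control and 288.6, 422.8 and 363.8 CPM in cKO. Its groups overlapped (edgeR adjusted p 0.70), and it was lowest in replicate 1 of each genotype, as the granule cell markers were. Gabra4, named after its values were seen, encodes an alpha subunit found mainly outside synapses. Control libraries held 19.87, 22.23 and 22.57 CPM of it and cKO libraries 25.39, 29.96 and 27.58 CPM, without overlap (log2 difference 0.36, edgeR adjusted p 0.080, DESeq2 adjusted p 0.040).

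Gphn lies on the plus strand of chromosome 12 from 78226379 to 78684772 and encodes gephyrin, which also makes the molybdenum cofactor in all tissues. Its level was 90.8, 77.0 and 73.9 CPM in control and 71.0, 72.1 and 73.7 CPM in cKO. The groups were separated only narrowly, between control 3 and cKO 3. The mean was 80.6 ± 9.0 CPM in control and 72.3 ± 1.3 CPM in cKO (SD, n = 3), with a log2 difference of -0.16 ± 0.10 (SE; edgeR adjusted p 0.40). Of the 20 genes of the inhibitory postsynapse and of receptor traffic, 2 fell and 0 rose, with a median log2 difference of 0.02 (3.85% and 4.03% over all genes tested). Trak2, among the fallen genes, encodes an adaptor that binds motor proteins and transports mitochondria. Trak2 fell from 160.5, 166.3 and 157.2 CPM to 101.8, 127.7 and 116.4 CPM (log2 difference -0.48, edgeR adjusted p 0.016). Every cKO library was below every control library. The call of Trak2 was lost without control 2 (adjusted p 0.073) and without cKO 3 (adjusted p 0.078).

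The GABA-B receptor genes fell furthest of the 7 genes. Gabbr1 was measured at 761.3, 794.2 and 697.8 CPM in control 1 to 3 and at 502.4, 523.9 and 488.4 CPM in cKO 1 to 3. The control libraries were all far above the cKO libraries. Gabbr1 fell, its means being 751.1 ± 49 and 504.9 ± 18 CPM (SD, n = 3) and its log2 difference -0.57 ± 0.09 (SE; edgeR adjusted p 0.0035). Gabbr2 lies on the minus strand of chromosome 4 from 46662305 to 46991873. It was measured at 471.5, 528.6 and 472.7 CPM in control and at 287.3, 300.3 and 282.4 CPM in cKO. Again no library of the 2 groups overlapped. Gabbr2 fell further, its means being 490.9 ± 33 and 290.0 ± 9.3 CPM (SD, n = 3) and its log2 difference -0.76 ± 0.09 (SE; edgeR adjusted p 8.5e-04). Calls of Gabbr1 and Gabbr2 held when any 1 of the 6 libraries was left out.

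GABBR1 and GABBR2 reach the cell surface together, so their ratio is of interest. Per kilobase of annotated exon, Gabbr2 stood at 0.719, 0.773 and 0.787 times the level of Gabbr1 in control 1 to 3 and at 0.664, 0.666 and 0.671 times in cKO 1 to 3. All 3 cKO ratios were below all 3 control ratios. The mean ratio was 0.760 ± 0.036 in control and 0.667 ± 0.0039 in cKO (SD, n = 3; exact two-sided permutation p 0.10, the smallest this design can give, and 0.30 after adjustment over 3 ratios).

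Of the 18 genes of GABA-B receptors and their partners, 6 fell and 1 rose, with a median log2 difference of -0.10, where 3.85% of all genes tested fell and 4.03% rose. Of the 6, 2 are the receptor genes themselves, and the others were Kctd12, Gnai1, Gnao1 and Ajap1. The gene that rose was Pianp. Kctd12 encodes an auxiliary subunit that speeds the fading of GABA-B currents. It fell from 908.4, 637.7 and 561.4 CPM to 459.1, 358.1 and 367.0 CPM (log2 difference -0.83 ± 0.17 SE, edgeR adjusted p 0.016), and replicate 1 was the highest library in each genotype. The Gi and Go alpha subunit genes are the partners through which the receptor signals. Gnai1 fell from 716.8, 626.2 and 610.4 CPM to 469.0, 467.2 and 463.6 CPM (log2 difference -0.48, edgeR adjusted p 0.010). Gnao1 fell from 2328, 1815 and 1721 CPM to 1387, 1328 and 1400 CPM (log2 difference -0.51, edgeR adjusted p 0.024). In each of the 3 genes the groups did not overlap. Ajap1 and Pianp encode membrane proteins that bind the sushi domains of the longer receptor isoform, GABBR1a. Ajap1, named after its values were seen, fell from 40.8, 37.9 and 40.0 CPM to 29.6, 31.6 and 26.4 CPM (log2 difference -0.44, edgeR adjusted p 0.027). Pianp rose from 154.7, 155.2 and 155.7 CPM to 192.5, 214.5 and 207.9 CPM (log2 difference 0.40, edgeR adjusted p 0.017). Thus 1 of these 2 ligands was lower and the other higher, each without overlap. Without 1 of the 6 libraries the call was lost in 2 fits for Kctd12, 1 for Gnai1, 4 for Gnao1, 5 for Ajap1 and 4 for Pianp.

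Vesicle release genes were listed because VGAT loads the vesicles that they dock and fuse. Of 18 tested, 3 fell and 0 rose, with a median log2 difference of -0.10, beside 3.85% fallen and 4.03% risen of all genes tested. Vamp1 encodes a vesicle SNARE, Unc13a a priming factor and Sv2c a vesicle glycoprotein. Vamp1 fell from 204.1, 212.1 and 201.0 CPM to 121.0, 131.7 and 130.5 CPM (log2 difference -0.69 ± 0.08 SE, edgeR adjusted p 0.0011). It was the 1 pathway gene besides Gabbr1 and Gabbr2 whose call held whichever library was left out. Unc13a fell from 107.7, 99.9 and 84.1 CPM to 70.3, 66.7 and 75.1 CPM (log2 difference -0.46, edgeR adjusted p 0.029). Sv2c fell from 89.9, 78.1 and 64.0 CPM to 56.1, 53.9 and 52.2 CPM (log2 difference -0.52, edgeR adjusted p 0.029). Their groups did not overlap, but the 3 control libraries of Unc13a and Sv2c were more widely spread than those of Vamp1. The calls of Unc13a and Sv2c were each lost in 5 of the 6 fits without 1 library.

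Over the 5 lists together, 12 of 88 tested genes fell and 1 rose, with a median log2 difference of -0.11, against 3.85% fallen, 4.03% risen and a median of 0.01 over all genes tested. Without the 7 genes themselves it was 9 fallen and 1 risen of 81. The number of fallen genes dropped to 5 without control 2 and to 3 without cKO 3.

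**Figure D3:**
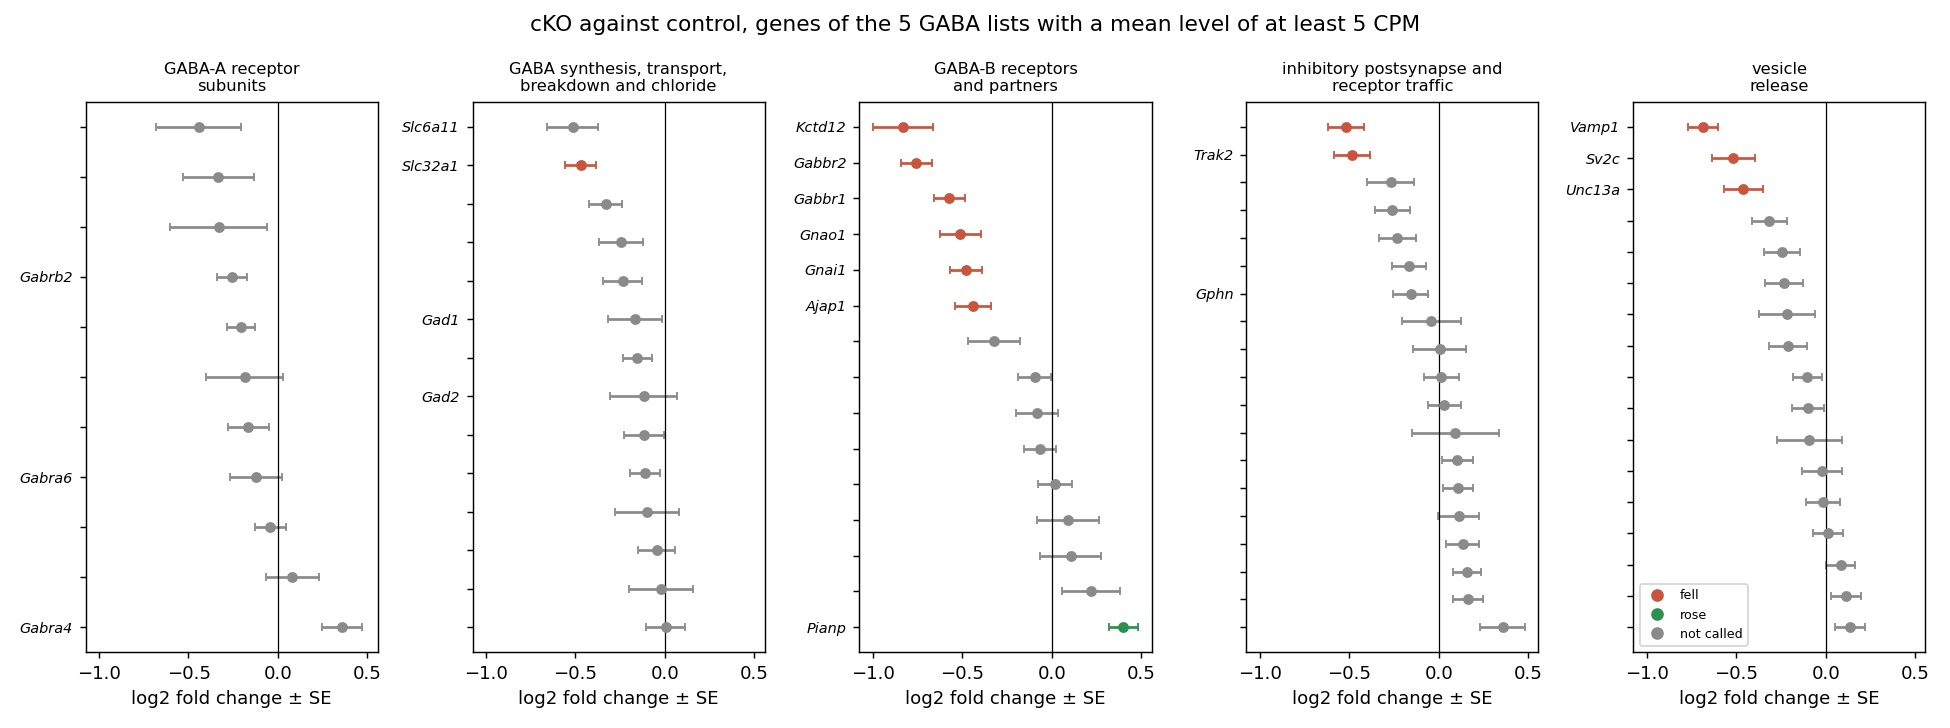
Log2 difference between cKO and control with its standard error (x axis) for genes of the 5 lists with a mean of at least 5 CPM (y axis, 1 row per gene, labelled where the text names it), coloured by edgeR's call at an adjusted p of 0.05. The called genes lie in the GABA-B, postsynapse, release and synthesis lists, while 0 of the 17 GABA-A subunit genes tested was called.

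Levels of the 7 genes can be ordered per kilobase of annotated exon. That length counts every annotated exon of a gene, used or not, so the order depends on the annotation. In control, Gabbr1 was the highest at 96.7 ± 6.3 CPM per kilobase, followed by Gabbr2 at 73.4 ± 4.9, Gad2 at 61.9 ± 18, Gabrb2 at 54.0 ± 1.8, Gad1 at 52.2 ± 13, Slc32a1 at 25.3 ± 1.1 and Gphn at 21.5 ± 2.4 CPM per kilobase (SD, n = 3). Gabbr1 was above Gabbr2 in every control library, whereas Gad2 overlapped with Gabbr2, Gabrb2 and Gad1, and Slc32a1 lay near Gphn. In cKO the order began with Gabbr1 at 65.0 ± 2.3 CPM per kilobase and Gad2 at 57.1 ± 10, followed by Gad1 at 46.5 ± 2.1, Gabrb2 at 45.2 ± 2.6 and Gabbr2 at 43.4 ± 1.4 CPM per kilobase. Slc32a1 at 18.2 ± 0.42 CPM per kilobase was below Gphn at 19.3 ± 0.35, the reverse of their order in control.

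For each gene the tested genes with the most similar pattern over the 6 libraries were found by Pearson correlation of log2 CPM among genes of at least 10 CPM. This is a description of these 6 libraries only. The libraries span both genotypes, so genes that differ between the genotypes in the same direction correlate for that reason alone. Slc32a1 was most like Fam160a1 and Atrnl1 (r of 0.998 and 0.996). Gabbr1 was most like Phkb, Lrp8 and Slc41a3, and Gabbr2 most like Pcsk6, Slc41a3 and Scn1a. Slc41a3 was thus close to both receptor genes. Gad1 was closest to Taok1, Vps13b and Ppm1k, and Gad2 to Birc6 and Trove2. Gabrb2 was closest to Maneal, Tmem184b and Epdr1, and Gphn to Rora, Pdp2 and Plekhd1.

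Splice junctions were examined next. TopHat reported 352 junctions inside the 7 genes, of which 236 are not introns of the annotation, and 145 had enough reads to be tested with edgeR's diffSpliceDGE against the other junctions of their cluster. A cluster joins junctions that share a donor or an acceptor. None of the 145 met the full rule of an adjusted p under 0.05 and a change of at least 5 percentage points in cluster share, against 0.751% of all junctions tested. Without the minimum change 4 of 145 passed, against 2.27% of all junctions tested. An unadjusted p under 0.05 was found for 30. The share of all junctions at that level is not given, so this count and those per gene below cannot be judged as high or low. The 4 were 1 in Gabbr1, 2 in Gabrb2 and 1 in Gphn, none was an annotated intron, and all had a higher share in cKO.

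In Gabbr1, reads joined exon 6 directly to exon 12, the unannotated join printed above. Control 1 to 3 held 35, 32 and 37 such reads and cKO 1 to 3 held 198, 221 and 211. Set against the leading junctions from the same donor and into the same acceptor, they made up 0.844%, 0.649% and 0.958% of reads in control and 6.67%, 7.08% and 6.47% in cKO. The replicates of each genotype were close together and the groups far apart. As a share of all reads of the cluster, which spans much of the gene, the join went from 0.146% ± 0.025 to 1.25% ± 0.096 (SD, n = 3; edgeR diffSpliceDGE adjusted p 7.5e-08). When clusters were formed from a shared donor only, or from a shared acceptor only, the change was 5.80 and 6.00 percentage points, and this junction met the full rule in each case, as 1.08% and 0.784% of all junctions tested in such clusters did. That choice of clusters was made after the data were seen. The join leaves out exons 7 to 11, 666 bases or 222 codons, which keeps the reading frame. The exons left out encode a stretch of the extracellular region, the part of GABBR1 that holds the GABA binding domain.

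Gabbr1 also has 2 main starts, of which the upstream one gives GABBR1a, with its sushi domains, and the downstream one GABBR1b. In the numbering used here GABBR1b begins in exon 6. Reads entering exon 6 from upstream, as a share of reads leaving it, were 11.9%, 13.1% and 15.7% in control and 17.6%, 15.1% and 14.8% in cKO. The groups overlapped. Along the gene, 18 of 22 annotated introns had fewer spliced reads (CPM) in every cKO library than in any control library. The other 4 were introns 1 to 4, upstream of exon 6. Introns of a gene share its level, so such counts, here and in the genes below, are not independent of the gene-level results. They were not set against the introns of all genes. Intron 3, for example, had 6.73 ± 1.0 CPM in control and 6.30 ± 0.72 CPM in cKO, while intron 6 had 31.3 ± 1.2 and 18.8 ± 2.3 CPM (SD, n = 3). The intron that ends at exon 6 also lies upstream of it and was among the 18, so the divide did not fall at exon 6. The difference between introns 1 to 4 and the later introns was not tested. Unannotated junctions took 0.279%, 0.532% and 0.296% of the spliced reads of Gabbr1 in control and 0.721%, 0.739% and 0.762% in cKO, without overlap. Over all genes that share was 1.52%, 1.98% and 1.69% in control and 2.13%, 2.03% and 2.04% in cKO, also without overlap. The separation is therefore not particular to Gabbr1, whose share was below that of all genes in every library.

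In Gabbr2 the spliced reads were lower in every cKO library for 18 of 18 annotated introns, with log2 ratios between -0.81 and -0.66. The fall was therefore of similar size from the 5′ to the 3′ end. Of 29 junctions tested in Gabbr2, 0 had an adjusted p under 0.05 and 3 an unadjusted p under 0.05. The unannotated junction with the largest change in share enters exon 2 from inside intron 1, at chr4:46875803-46971827, and had 4, 2 and 0 reads in control and 0, 26 and 21 in cKO. It was absent from cKO 1, so the groups overlapped (edgeR diffSpliceDGE adjusted p 0.31).

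Gabrb2 had both of its passing junctions at exon 5, the joins from exon 2 and exon 3 printed above. Reads from exon 2 to exon 5 numbered 0 in each control library and 54, 30 and 23 in cKO 1 to 3, and reads from exon 3 to exon 5 numbered 0 in each control library and 74, 21 and 21. Every cKO library held both joins, and cKO 1 held the most. Against the leading junctions at the same ends, the exon 2 to 5 join made up 3.25%, 1.87% and 1.57% in cKO (edgeR diffSpliceDGE adjusted p 1.4e-04), and the exon 3 to 5 join 3.87%, 1.21% and 1.27% (adjusted p 6.4e-05). Taking 3 counts over the control group as the floor, the first was at least 31.2-fold higher and the second at least 33.8-fold higher in cKO. The change in cluster share of the exon 3 to 5 join was 0.35 percentage points, and 0.20 without cKO 1, still with an adjusted p under 0.05. Leaving out exons 3 and 4 removes 160 bases and leaving out exon 4 removes 68 bases, neither a multiple of 3. Read on from the annotated start codon, the frame met a stop after 3 whole codons beyond the exon 2 to 5 join and after 38 beyond the exon 3 to 5 join.

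All unannotated junctions of Gabrb2 together, these joins included, took 0.173%, 0.469% and 0.334% of its spliced reads in control and 3.32%, 1.54% and 1.74% in cKO. The groups did not overlap, and neither did the shares over all genes given above. The largest change in share was at a junction from exon 6 to a site inside intron 6, chr11:42529495-42568737, with 3, 41 and 19 reads in control and 123, 45 and 69 in cKO. Control 2 lay close to cKO 2, and the junction did not pass (edgeR diffSpliceDGE adjusted p 0.15). Without control 2 it did (adjusted p 0.048). The annotated introns of Gabrb2 changed little, since 1 of 9 separated the groups, with a median log2 ratio of -0.04. Its annotated 114-base exon, which marks the long form of the subunit, was included in 0.296%, 0.0568% and 2.62% of reads in control and 1.84%, 0.927% and 1.39% in cKO, with wide overlap.

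Slc32a1 has 1 annotated intron, and its unannotated junctions took 0%, 2.55% and 0.912% of spliced reads in control and 4.14%, 2.95% and 5.33% in cKO. The share over all genes, given above, was also higher in every cKO library. Most of the cKO reads were on a junction from exon 1 to an acceptor inside that intron, chr2:158611632-158613357. This junction had 0, 0 and 6 reads in control and 32, 23 and 48 in cKO. All 3 cKO libraries were above control 3, the only control library with reads. Its cluster share was 0.259% ± 0.45 in control and 4.03% ± 1.2 in cKO (SD, n = 3), which did not pass (edgeR diffSpliceDGE adjusted p 0.070). It passed when only junctions with at least 5 reads in 3 libraries were tested (adjusted p 0.034) and without control 3 (adjusted p 0.012). The annotated intron of Slc32a1 had 928, 880 and 761 reads in control and 765, 756 and 853 in cKO, so that most spliced reads of the gene stayed on it in every library.

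Gphn had 1 junction that passed without the minimum change, from exon 23 to an acceptor inside the last intron, chr12:78682815-78683594. It had 0 reads in each control library and 10, 13 and 22 in cKO, where it made up 1.13%, 1.39% and 2.18% of local reads (edgeR diffSpliceDGE adjusted p 0.045). The call was lost when any 1 of the 6 libraries was left out, with adjusted p values from 0.087 to 0.18, so it rests on all of them. Another junction, from exon 10 to a site inside intron 10 at chr12:78532699-78534562, had the largest change in share of the gene, with 7, 9 and 3 reads in control and 34, 28 and 7 in cKO. Its groups overlapped and it did not pass (adjusted p 0.55).

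Gephyrin has many alternative exons. An unannotated exon of 39 bases inside intron 4, chr12:78435174-78435212, was included in 19.3%, 21.1% and 18.0% of reads in control and 14.60%, 13.27% and 12.97% in cKO. Inclusion was lower in all 3 cKO libraries, but neither of its junctions passed the test (edgeR diffSpliceDGE adjusted p 0.47 and 0.70). The annotated exon of 108 bases in intron 7 had an inclusion of 14.1% ± 3.4 in the control and 11.8% ± 0.60 in the cKO libraries (SD, n = 3). Of 23 annotated introns of Gphn, 9 were lower in every cKO library, introns 2 to 7 among them, whereas introns 19 and 20 had slightly higher means in cKO (6.17 ± 0.27 against 5.72 ± 1.5 CPM, and 6.71 ± 0.54 against 6.14 ± 1.6 CPM). A gap of 63 bases at chr12:78351013-78351075 carried 10746 reads in cKO 2 only and raised the unannotated share of Gphn reads to 46.3% there. A gap beside it, chr12:78351028-78351078, carried 2371 reads in control 2 and 2147 in cKO 1, so this share was not compared between the genotypes.

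The decarboxylase genes had no passing junction, with 14 tested in Gad1 and 6 in Gad2. In edgeR's diffSpliceDGE, 4 and 2 of these had an unadjusted p under 0.05. The unannotated junction of Gad1 with the largest change leads from exon 3 to a site inside intron 3, chr2:70567249-70567377. Control libraries held 239, 125 and 322 of its reads and cKO libraries 133, 99 and 161, with overlap (adjusted p 0.33). In Gad2 the corresponding junction, chr2:22630735-22634929, had 0 reads in each control library and 3, 0 and 7 in cKO (adjusted p 0.40). No annotated intron of Gad1 (0 of 16) or Gad2 (0 of 15) separated the genotypes.

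Counting junctions seen in all 3 libraries of one genotype and in none of the other, without a test, the 7 genes held 10 of the cKO-only and 1 of the control-only kind among their 236 unannotated junctions. Over all genes these kinds made up 2.11% and 0.333% of 226194 unannotated junctions. The 10 were 5 in Gabrb2, 2 in Gad1, 2 in Gphn and 1 in Gad2. Gabbr1, Gabbr2 and Slc32a1, the genes that fell in level, had none. The count leaves out any junction with reads in both genotypes. Among those left out are the Gabbr1 join from exon 6 to exon 12 and the Slc32a1 junction from exon 1. Each had more reads in all 3 cKO libraries than in any control library.

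**Figure D4:**
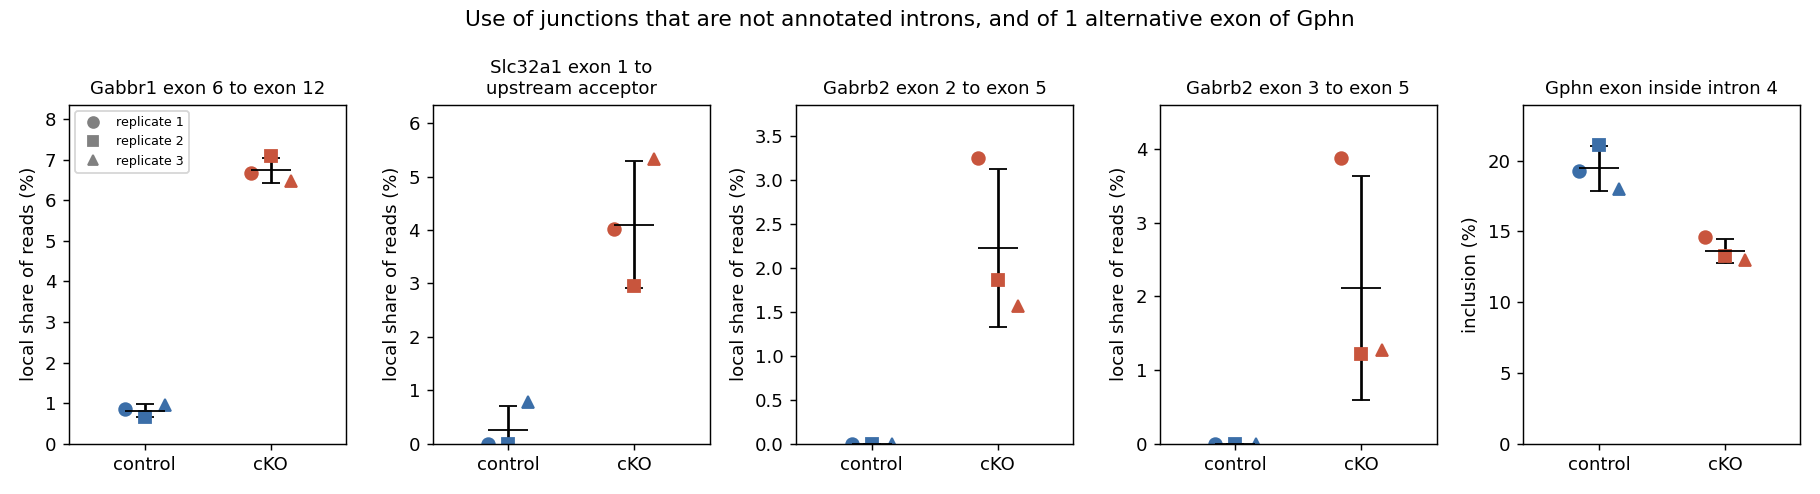
Local share of reads (y axis, percent) of 4 unannotated junctions of Gabbr1, Slc32a1 and Gabrb2, and inclusion of the 39-base exon of Gphn, in the control and cKO libraries, with symbols for the 3 replicates and bars for mean ± SD (n = 3). The Gabbr1 exon 6 to 12 join lay under 1% in control and between 6.47% and 7.08% in cKO, and the Gabrb2 joins were at 0 in all 3 control libraries.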

How the data were processed

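Per the deposited table, gene levels are raw, unnormalized counts for 3 control and 3 cKO libraries. Each library also has a TopHat junction list whose value is, per the file headers, the count of reads across the junction. TopHat2 2.1.0, HTSeq 0.6.0 and mm10 are named in the submitters' processing notes, while the annotation and strand setting of the counting are not named there or in the labels. The count table held 27 rows with date-like names and 4 repeated rows. Per the labels' protocols, cDNA was amplified from 10 ng of RNA without mention of molecular identifiers, and a floor therefore reflects counting error alone.

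The gene test was edgeR's quasi-likelihood test (edgeR 4.0.16, R 4.3.3) after filterByExpr and TMM scaling, with Benjamini-Hochberg adjustment over 16067 genes. diffSpliceDGE was run on the 112047 junctions, in 29112 clusters, that reached 10 reads in total and were seen in 2 or more libraries. Junction CPM uses the gene library sizes. Introns and exon lengths come from GENCODE of mm10, and joins were read from its transcripts. Local share is a junction's reads over those reads plus the mean of the leading junctions at its donor and acceptor. In simulated data, 83% of 200 changed genes were recovered, and 86% of 200 junctions raised to a share of 20%. The gene rate holds only for the sizes of change that were simulated, which are not given here. Sensitivity to changes as small as those of Gad1, Gad2, Gphn or Gabrb2 cannot be read from it. The junction rate holds only for a share of 20% in clusters of many reads. The 4 junctions of the 7 genes that passed without the minimum change had mean cluster shares of 0.33% to 1.57% in cKO. Sensitivity to shares as small as these cannot be read from the junction rate.

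The members and lists were chosen with earlier results of these data known. Named are the 7 genes, Rbm17, up to 6 called genes per list or the 2 highest where none was called, called junctions, and each gene's unannotated junction with the largest share change. Any other gene was named after its values were seen. A few genes chosen this way are counted but not reported here. Of the listed symbols, 2 were matched through an older name. The alternatives were RLE and upper quartile scaling, other count filters, DESeq2 1.42.0, limma-voom (limma 3.58.1), a replicate block, each library left out, and other junction filters, minimum changes and clusters.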

Additional observations from a re-analysis of the deposited data

How the results depend on the processing

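The 3 fallen members numbered 2 to 3 when each library was left out, 4 with DESeq2, and 3 under every other alternative for gene levels. No member rose under any of them. Fallen pathway genes (12) ranged from 3 to 11 with a library left out. They numbered 5 without control 2 and 3 without cKO 3. Risen pathway genes (1) ranged from 0 to 2 with a library left out, and numbered 2 with DESeq2. Member junctions with a higher share (0) numbered 1 with clusters by donor, 1 with clusters by acceptor and 4 with no minimum change, and 0 in each fit without 1 library. With a library left out, the log2 difference ranged from -0.30 to 0.059 for Gad1 and from -0.27 to 0.14 for Gad2, each positive only without control 1. The call of Kctd12 was lost without cKO 2 or cKO 3, Gnai1 without cKO 3, Gnao1 without control 2 or any cKO library, Pianp without control 2, control 3, cKO 2 or cKO 3, Ajap1 without any library but cKO 2, and Unc13a and Sv2c without any library but control 3. The causes were not tested. Deviations of same-numbered libraries from their group means had correlations of 0.04, -0.06 and 0.02, and not every library was closest to its own number. With 3 libraries per group these values cannot exclude a pairing or a shared batch. The labels state no pairing, and the main test used none. With the replicate block, 3 members, 14 fallen and 3 risen pathway genes were called, and the Gphn junction at exon 23 had a diffSpliceDGE adjusted p of 0.099. Few junctions could be tested in Gad2 (6) and Slc32a1 (3), which limits what could be seen there.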
